A study of Rattus norvegicus with 15 samples.

Results

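The 9 enzymes described here carry sterol synthesis from the closing of the sterol ring to cholesterol. They are Lss, Cyp51, Tm7sf2, Msmo1, Nsdhl, Hsd17b7, Ebp, Sc5d and Dhcr7, in the order of their steps. They were picked by symbol from the 21576 genes of the deposited liver RNA table. No cutoff on measured values was used, but the choice was made with earlier results of these data known. All 9 were in the table, and all 9 passed the filter on low counts that left 13163 genes for testing.

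The table covers livers of male Sprague-Dawley rats, sequenced as 15 RNA libraries with 5 in each of 3 groups. ZXD rats ate a lipid-raising feed for 4 weeks and were then given Zexie Decoction orally, at a daily dose of 2.2 g per kg, for a further 4 weeks. Zexie Decoction is a Chinese herbal preparation of Alisma and Atractylodes rhizomes. HFD rats ate the same feed and received saline in place of the decoction. CON rats ate normal chow. The feed of ZXD and HFD rats was 66% base forage with 16.7% sucrose, 8.3% yolk, 7% lard, 2% cholesterol, 0.3% sodium cholate and 0.2% propylthiouracil. Sodium cholate is a bile salt and propylthiouracil blocks the making of thyroid hormone, so ZXD and HFD livers share both agents beside the added cholesterol and fat. The labels give no ages, and they put 10 rats in each group without saying which rats the libraries came from. The p-values therefore measure the spread between these samples, which may in part be technical.

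Cholesterol is built in the endoplasmic reticulum, and the liver is a main site of its synthesis. Lss folds the linear squalene epoxide into lanosterol. The enzymes after it strip methyl groups from the ring system, move a double bond and reduce it, using oxygen and electrons passed on by cytochrome P450 reductase and cytochrome b5. When sterols fill the membrane of the endoplasmic reticulum, the transcription factor SREBP-2, the product of Srebf2, is held back by Scap and the Insig proteins. When sterols are scarce it is cut free and raises transcription of the genes of this pathway.

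The promoters of the 9 genes are shown because the genes are described below as moving together against CON livers. Each was taken from RefSeq on the build GRCr8 as 300 bases, from 250 before the start of transcription to 50 after it, and 9 of 9 symbols matched. A set of 3 motifs was searched on both strands, and no match overlapped a match of another motif. CCAAT, the letters bound by NF-Y, was in 7 of 9 promoters, against 37.5% of 33469 rat promoters. GGGCGG, the letters bound by Sp1, was in 8 of 9, against 33.1%. TCACNCCAC, a form of the sterol regulatory element, was in 0 of 9, against 1.12%. The GC content of the 9 promoters lay between 57.3% and 71.0%, against a median of 51.7% over all promoters. Printed 5′ to 3′ on the gene's own strand are the 60 bases from 120 to 61 before the start, with CCAAT or its reverse complement ATTGG in capitals.
Lss, chr20:12118291-12118350, minus strand: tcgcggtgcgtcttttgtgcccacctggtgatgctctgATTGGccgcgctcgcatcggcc
Cyp51, chr4:30991573-30991632, plus strand: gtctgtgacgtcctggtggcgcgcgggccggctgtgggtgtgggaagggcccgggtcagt
Tm7sf2, chr1:212789602-212789661, minus strand: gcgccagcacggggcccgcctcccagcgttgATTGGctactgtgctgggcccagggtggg
Msmo1, chr16:29746993-29747052, plus strand: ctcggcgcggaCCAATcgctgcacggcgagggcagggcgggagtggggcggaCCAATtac
Nsdhl, chrX:155817240-155817299, plus strand: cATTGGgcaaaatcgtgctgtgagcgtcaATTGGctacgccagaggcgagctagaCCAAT
Hsd17b7, chr13:84722815-84722874, minus strand: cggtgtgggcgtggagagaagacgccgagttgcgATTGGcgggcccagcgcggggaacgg
Ebp, chrX:16971342-16971401, plus strand: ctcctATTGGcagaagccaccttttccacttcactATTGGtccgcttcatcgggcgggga
Sc5d, chr8:51538338-51538397, minus strand: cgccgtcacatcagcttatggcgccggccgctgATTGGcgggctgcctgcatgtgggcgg
Dhcr7, chr1:208444314-208444373, plus strand: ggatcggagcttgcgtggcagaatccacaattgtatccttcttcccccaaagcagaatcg
In 6 of the 9, Lss, Tm7sf2, Nsdhl, Hsd17b7, Ebp and Sc5d, an ATTGG began between 82 and 91 bases before the start. An ATTGG beginning 80 to 95 bases before the start was in 1.94% of all promoters; that window was set after the positions were seen. Msmo1 carried CCAAT on the other strand, and Cyp51 and Dhcr7 had neither CCAAT nor ATTGG in the 300 bases. These matches are letters in a window and were not tested for binding.

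Total counts per library lay between 12552449 and 14228052. Values below are CPM, read counts brought to a common library size with edgeR's TMM factors, which ranged from 1.01 to 1.28 in ZXD, from 1.07 to 1.13 in HFD and from 0.793 to 0.868 in CON. When library totals replaced these factors, the all-gene median of the log2 fold change became 0.44 in HFD against CON and 0.45 in ZXD against CON, so changes against CON are relative to the TMM scale. Of all called genes, 45.2% were lower in ZXD against CON and 52.1% in HFD against CON on the TMM scale, and 9.42% and 8.57% with library totals, under which all 9 enzymes were still called lower. Libraries of the same group differed well beyond sampling noise, so none was a second deposit of another. Albumin, the plasma protein that hepatocytes make in bulk, took 1.76% to 5.12% of the counts in ZXD, 2.96% to 5.20% in HFD and 7.53% to 9.22% in CON. In bulk tissue, fewer cells of a type and less RNA per cell cannot be told apart.

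All 9 enzymes were lower in HFD livers than in CON livers, and their depth of change differed by step. Cyp51, Tm7sf2 and Msmo1, which act one after another, were at 6.75%, 9.18% and 6.88% of their CON mean, while the other 6 were at 28.2% to 52.2%. ZXD livers, on the same feed, held close to the same low levels as HFD livers, and no enzyme differed between ZXD and HFD past the threshold. In HFD against CON, 9 of 9 fell at an adjusted p under 0.05 (edgeR quasi-likelihood test, Benjamini-Hochberg adjustment over 13163 genes), against 10.9% of all tested genes called lower. The groups did not overlap for 9 of 9, against 8.46% of all genes that were lower with no overlap. The median log2 fold change of the 9 was -1.79, beside 0.02 over all tested genes. Against CON, ZXD livers showed 9 of 9 lower, beside 14.8% of all genes, with 9 of 9 not overlapping, beside 9.79%, and a median of -1.56. These comparisons share the CON libraries and are not independent of each other.

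**Figure D1:**
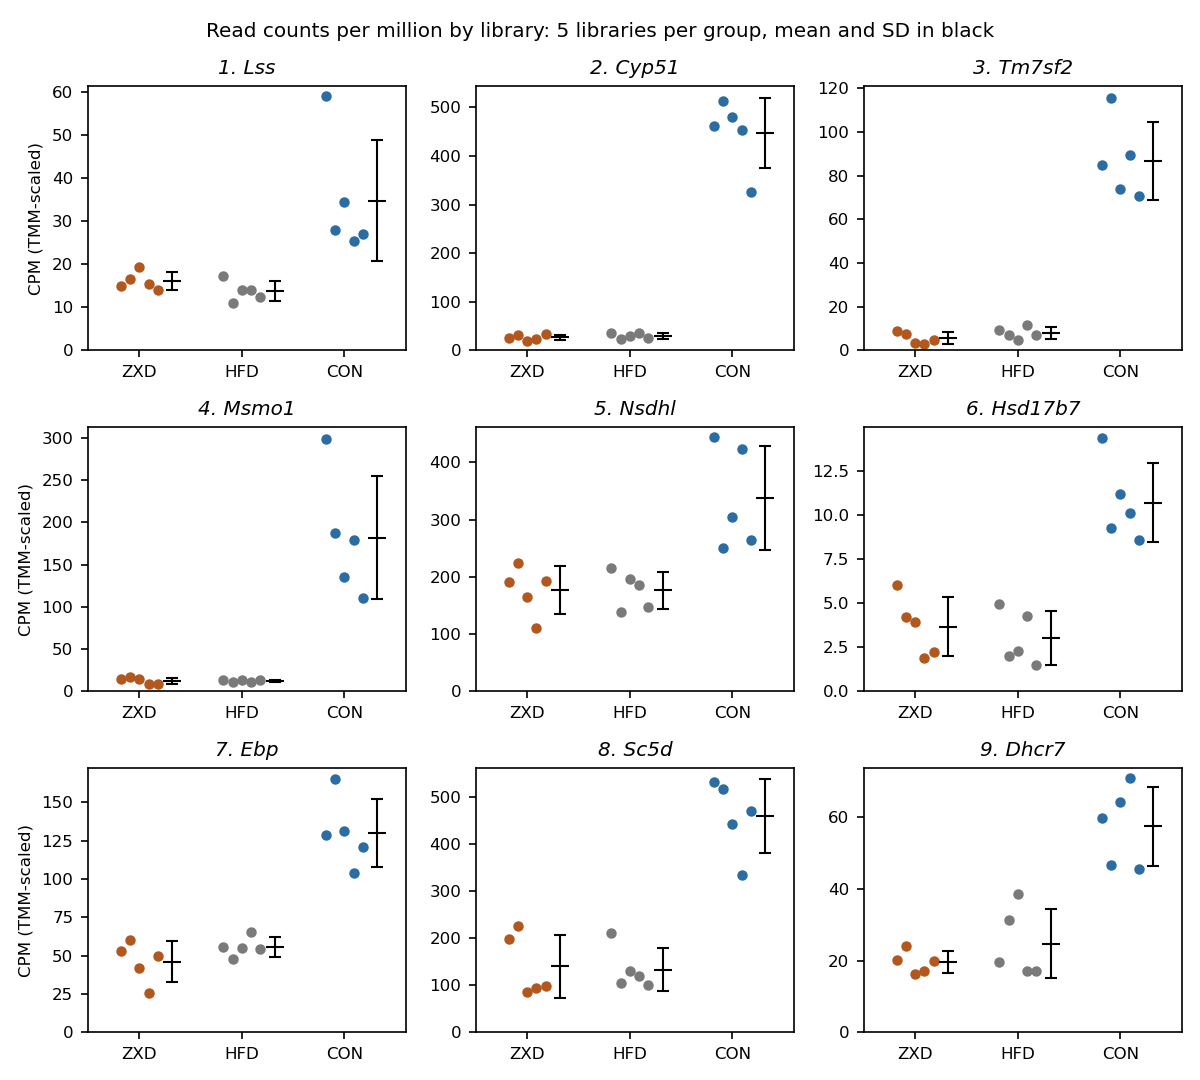
CPM (TMM-scaled) of each enzyme in each library, 1 panel per enzyme in step order, with the group mean and SD in black (n = 5 per group) and each vertical axis starting at 0. In all 9 panels every ZXD and HFD library lies below the lowest CON library, while ZXD and HFD libraries overlap.

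Lss, lanosterol synthase, closes the ring and opens the sequence. It had 15.1, 16.7, 19.5, 15.5 and 14.0 CPM in ZXD livers, 17.3, 11.02, 14.1, 14.0 and 12.5 CPM in HFD livers, and 59.1, 28.0, 34.6, 25.3 and 27.1 CPM in CON livers. CON 1 stood highest, and even the lowest CON library exceeded every library on the feed. In HFD against CON, Lss fell by 1.34 on the log2 scale (standard error 0.21, edgeR adjusted p of 0.000794). Without CON replicate 1 the edgeR call stood.

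Cyp51, the cytochrome P450 that removes a methyl group from lanosterol, was among the 3 enzymes with the most negative changes against CON. It had 26.3, 32.2, 19.7, 22.7 and 32.9 CPM in ZXD livers, 36.8, 22.7, 29.2, 36.0 and 26.3 CPM in HFD livers, and 461, 514, 481, 454 and 325 CPM in CON livers. The CON libraries lie far above all others, and ZXD and HFD libraries interleave. Cyp51 fell in HFD against CON by 3.89 on the log2 scale (standard error 0.20, edgeR adjusted p of 1.53e-08), which placed it 29 from the most negative of 13163 tested genes. In ZXD against CON it fell by 4.06 (standard error 0.20, edgeR adjusted p of 1.36e-08).

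Tm7sf2 is a sterol reductase that reduces the double bond left by Cyp51. It had 8.94, 7.71, 3.42, 2.81 and 4.92 CPM in ZXD livers, 9.45, 7.25, 4.87, 11.4 and 6.84 CPM in HFD livers, and 85.1, 115, 73.8, 89.4 and 70.6 CPM in CON livers. ZXD 3 and ZXD 4 were lowest, the ZXD and HFD ranges overlap, and no library on the feed reached the CON range. The log2 fold change was -3.44 in HFD against CON (standard error 0.31, edgeR adjusted p of 7.77e-06) and -3.97 in ZXD against CON (standard error 0.32, edgeR adjusted p of 2.89e-06).

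Msmo1, the oxidase that starts the removal of the next methyl groups, had 14.3, 16.9, 14.2, 8.60 and 8.55 CPM in ZXD livers, 13.8, 10.7, 13.4, 11.7 and 13.1 CPM in HFD livers, and 299, 188, 135, 179 and 110 CPM in CON livers. HFD libraries sat within a narrow band, ZXD libraries spread to both sides of it, and CON libraries differed widely among themselves but all lay above. Msmo1 fell by 3.86 on the log2 scale in HFD against CON (standard error 0.27, edgeR adjusted p of 5.4e-07) and by 3.86 in ZXD against CON (standard error 0.27, edgeR adjusted p of 5.38e-07).

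Nsdhl, the dehydrogenase that completes each methyl removal by splitting off the carboxyl group, had log2 fold changes nearest to 0 against CON. It had 192, 224, 166, 111 and 193 CPM in ZXD livers, 216, 138, 196, 185 and 147 CPM in HFD livers, and 445, 251, 304, 424 and 265 CPM in CON livers. ZXD 4 was lowest, and the highest library on the feed, ZXD 2, came close to CON 2 without reaching it. The log2 fold change was -0.94 in HFD against CON (standard error 0.21, edgeR adjusted p of 0.00772) and -0.93 in ZXD against CON (standard error 0.21, edgeR adjusted p of 0.00559). Both calls were lost on a hepatocyte scale and with a macrophage covariate, as given with the marker values below.

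Hsd17b7 reduces the ketone that Nsdhl leaves, and it was the scarcest of the 9. It had 6.05, 4.21, 3.91, 1.89 and 2.24 CPM in ZXD livers, 4.98, 2.02, 2.29, 4.29 and 1.49 CPM in HFD livers, and 14.3, 9.27, 11.2, 10.1 and 8.60 CPM in CON livers. The values on the feed differ by more than 3-fold between libraries of a group, yet all lie below CON. It fell by 1.82 on the log2 scale in HFD against CON (standard error 0.36, edgeR adjusted p of 0.00355). The mean raw count was 52.0 in ZXD, 44.4 in HFD and 119 in CON, and its interval is the widest of the 9. The file's positions put a provisional gene, LOC100366054, over Hsd17b7 on the other strand, and without a stated use of strand the reads of the pair cannot be told apart.

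Ebp, which shifts the ring double bond, had 53.3, 60.5, 42.2, 25.5 and 49.7 CPM in ZXD livers, 56.0, 48.0, 54.8, 65.7 and 54.7 CPM in HFD livers, and 129, 165, 131, 104 and 121 CPM in CON livers. ZXD 4 was the lowest library, and CON libraries did not overlap either group. Ebp fell by 1.22 on the log2 scale in HFD against CON (standard error 0.19, edgeR adjusted p of 0.000708) and by 1.49 in ZXD against CON (standard error 0.19, edgeR adjusted p of 0.000143).

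Sc5d, the desaturase that adds a double bond to lathosterol, had 197, 226, 86.4, 93.2 and 97.7 CPM in ZXD livers, 211, 105, 129, 119 and 101 CPM in HFD livers, and 532, 517, 441, 334 and 470 CPM in CON livers. ZXD 1, ZXD 2 and HFD 1 stood apart above the other libraries on the feed and still lay under the lowest CON library. In HFD against CON, Sc5d fell by 1.79 on the log2 scale (standard error 0.30, edgeR adjusted p of 0.00104).

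Dhcr7 reduces the double bond of dehydrocholesterol to give cholesterol, and in humans its loss causes Smith-Lemli-Opitz syndrome. It had 20.3, 24.1, 16.3, 17.1 and 19.9 CPM in ZXD livers, 19.6, 31.2, 38.5, 17.2 and 17.2 CPM in HFD livers, and 59.7, 46.7, 64.2, 71.0 and 45.7 CPM in CON livers. HFD 2 and HFD 3 were above every ZXD library, the other HFD libraries lay inside the ZXD range, and CON stayed above all of them. Dhcr7 fell by 1.22 on the log2 scale in HFD against CON (standard error 0.22, edgeR adjusted p of 0.0022) and by 1.56 in ZXD against CON (standard error 0.23, edgeR adjusted p of 0.000378).

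In ZXD against CON, Lss, Hsd17b7 and Sc5d also fell, with log2 fold changes of -1.11, -1.55 and -1.71. Their edgeR adjusted p-values in that comparison were 0.00226, 0.00588 and 0.00121.

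The ZXD against HFD comparison asked whether the decoction changed these enzymes in rats kept on the feed. Of the 9, 0 were called (edgeR), where 0% of all 13163 genes were called, and 0 had groups that did not overlap, beside 3.68% of all genes. None of the 9 had an unadjusted p under 0.05 (edgeR), and 2167 of all 13163 genes did. DESeq2 called 342 of the 13163 genes and limma voom 0, with none of the 9 among them. With only 9 enzymes, these counts of 0 do not set them apart from all genes. The most negative log2 fold change was that of Tm7sf2, -0.52 (95% interval -1.17 to 0.12, edgeR adjusted p = 0.387). Dhcr7 followed at -0.34 (95% interval -0.81 to 0.13), Ebp at -0.27 (-0.68 to 0.13) and Cyp51 at -0.17 (-0.56 to 0.21). Msmo1 and Nsdhl were at 0.00 with intervals of -0.54 to 0.53 and -0.45 to 0.45. Sc5d was at 0.08 (-0.54 to 0.69), Lss at 0.23 (-0.22 to 0.68) and Hsd17b7 at 0.28 (-0.49 to 1.04). The median of the 9 was -0.0031, beside 0.02 over all genes, with 5 negative and 4 positive. A missed threshold does not show equal levels. Each interval still spans both directions, and for Hsd17b7 and Tm7sf2 it reaches past a 2-fold difference.

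**Figure D2:**
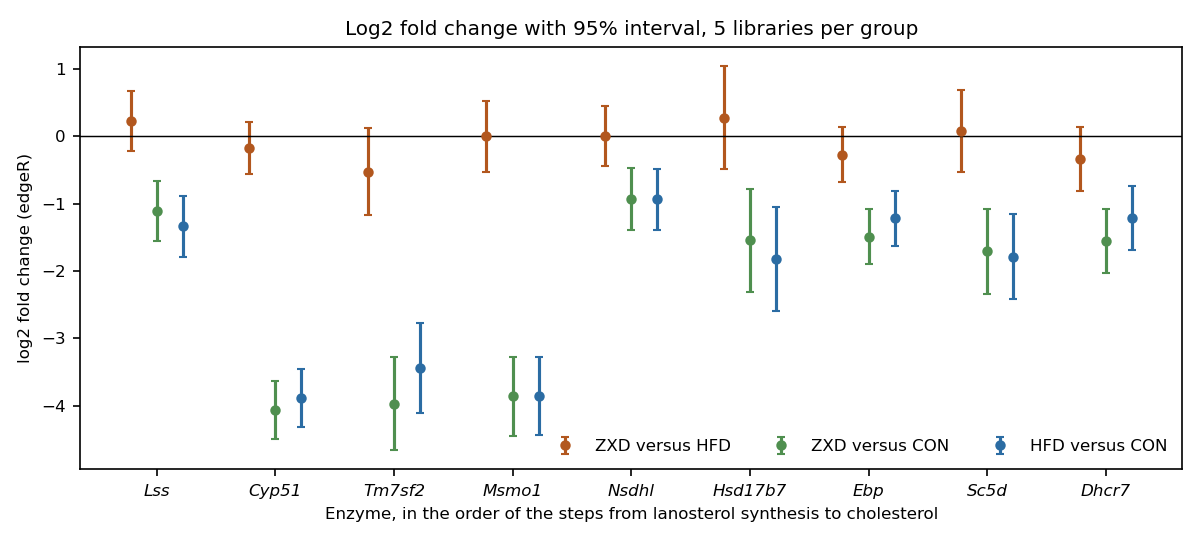
Log2 fold change (vertical axis) with its 95% interval from the edgeR fit for each enzyme in step order, for ZXD against HFD, ZXD against CON and HFD against CON (n = 5 libraries per group). Cyp51, Tm7sf2 and Msmo1 lie between -3.44 and -4.06 against CON, the other 6 between -0.93 and -1.82, and all 9 intervals of ZXD against HFD cross 0.

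Ratios of neighbouring steps within a library depend on the scale between libraries only through the prior count of 2. For each of 8 neighbouring pairs, the log2 CPM of the earlier enzyme was subtracted from that of the later one, and groups were compared with a two-sided exact permutation test. There were 24 comparisons, adjusted by Benjamini-Hochberg, and the smallest p that 5 against 5 libraries allow is 0.0079.

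Relative to CON, RNA levels on the feed stepped down between Lss and Cyp51 and back up between Msmo1 and Nsdhl. The Cyp51 to Lss log2 ratio averaged 0.71 ± 0.46 in ZXD, 1.12 ± 0.14 in HFD and 3.74 ± 0.50 in CON (SD, n = 5 each). It was lower by 2.62 in HFD than in CON and by 3.03 in ZXD than in CON, with no overlap (exact permutation p = 0.0079, adjusted p = 0.038, for each). The Nsdhl to Msmo1 ratio averaged 3.82 ± 0.37 in ZXD, 3.79 ± 0.21 in HFD and 0.93 ± 0.40 in CON. It was 2.85 higher in HFD than in CON and 2.89 higher in ZXD than in CON, with no overlap (exact permutation p = 0.0079, adjusted p = 0.038, for each).

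Between Cyp51, Tm7sf2 and Msmo1 no ratio passed in any comparison. The Tm7sf2 to Cyp51 ratio averaged -2.34 ± 0.56 in ZXD, -1.94 ± 0.37 in HFD and -2.37 ± 0.22 in CON, and the groups overlapped (exact permutation adjusted p = 0.17 in HFD against CON). The Msmo1 to Tm7sf2 ratio averaged 1.23 ± 0.56 in ZXD, 0.69 ± 0.52 in HFD and 1.005 ± 0.47 in CON, again with overlap (exact permutation adjusted p = 0.48 in HFD against CON).

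A further ratio passed. Hsd17b7 to Nsdhl averaged -5.62 ± 0.51 in ZXD, -5.92 ± 0.51 in HFD and -4.94 ± 0.26 in CON, and was 0.98 lower in HFD than in CON (exact permutation p = 0.0079, adjusted p = 0.038). That call was lost without any one of the 5 CON libraries or of HFD 2, HFD 3 and HFD 5 (exact permutation adjusted p 0.063 to 0.15), with a difference of -0.83 to -1.08. None of the 8 ratios passed in ZXD against HFD.

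**Figure D3:**
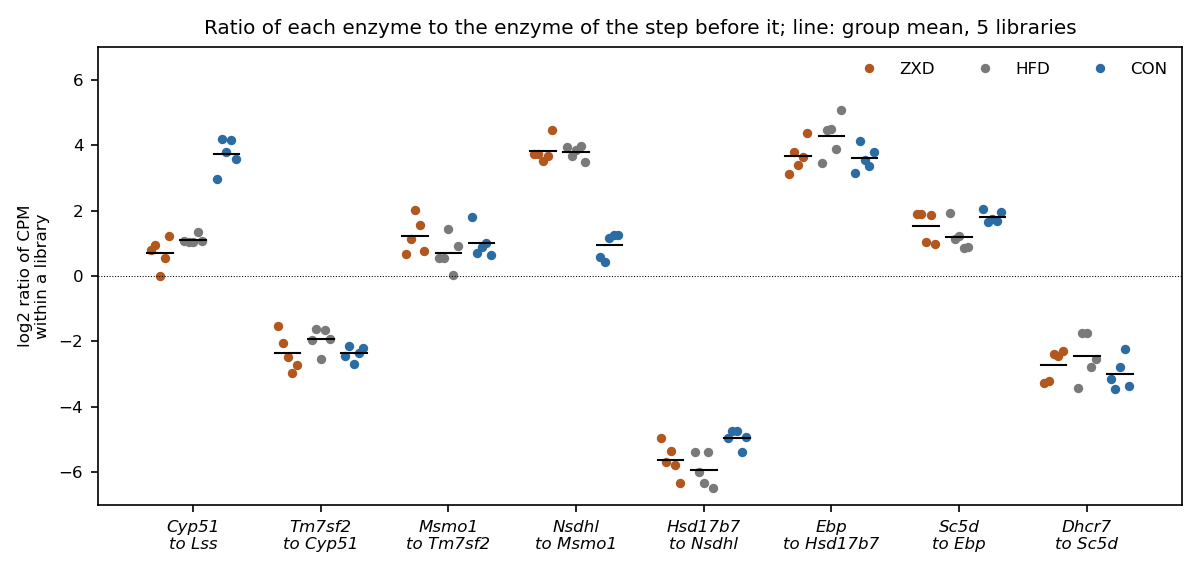
Log2 ratio of CPM of each enzyme to the enzyme of the step before it (vertical axis), within each library, for 8 neighbouring pairs along the pathway, with ZXD, HFD and CON side by side and a line at the mean of 5 libraries. Cyp51 to Lss is lower and Nsdhl to Msmo1 is higher in every ZXD and HFD library than in any CON library.

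Levels were compared between enzymes per unit length, with the deposited FPKM values. In ZXD livers Nsdhl averaged 112 ± 18.6 FPKM, Sc5d 69.9 ± 29.1 and Ebp 47.5 ± 10.6 (SD, n = 5 each). Nsdhl overlapped Sc5d and Sc5d overlapped Ebp, Nsdhl and Ebp did not overlap, and all 3 stood above Cyp51 at 9.73 ± 1.65 FPKM with no overlap. HFD livers had the same order at the top, with Nsdhl at 113 ± 21.3 FPKM, Sc5d at 67.5 ± 24.2, Ebp at 58.2 ± 6.18 and, below a gap, Cyp51 at 11.01 ± 2.25. In CON livers Sc5d at 174 ± 32.4 FPKM and Nsdhl at 160 ± 40.7 led, but Cyp51 followed at 121 ± 17.3, ahead of Ebp at 102 ± 17.9, Msmo1 at 87.2 ± 34.3 and Tm7sf2 at 48.6 ± 9.53. Neighbours among these 6 overlapped in CON, and the gap came after Tm7sf2, ahead of Dhcr7 at 17.2 ± 2.87 and Lss at 10.0 ± 4.04 FPKM. Hsd17b7 was lowest in each group, at 2.34 ± 0.998 FPKM in ZXD, 1.95 ± 0.9997 in HFD and 5.16 ± 1.06 in CON, though its ZXD range overlapped that of Tm7sf2.

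As a share of the summed FPKM of the 9, Cyp51, Tm7sf2 and Msmo1 held 3.74%, 1.48% and 3.02% in ZXD livers, 3.92%, 2.15% and 2.92% in HFD livers, and 16.8%, 6.73% and 11.7% in CON livers. The ranges of each on the feed lay below its CON range. Nsdhl alone took 42.2% ± 4.21 in ZXD and 40.1% ± 1.67 in HFD, against 22.1% ± 4.85 in CON. Sc5d held 25.5% ± 6.09 in ZXD, 23.6% ± 3.99 in HFD and 24.05% ± 4.15 in CON. Shares of a fixed sum move against each other, so they describe the make-up of the 9 and not separate changes.

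**Figure D4:**
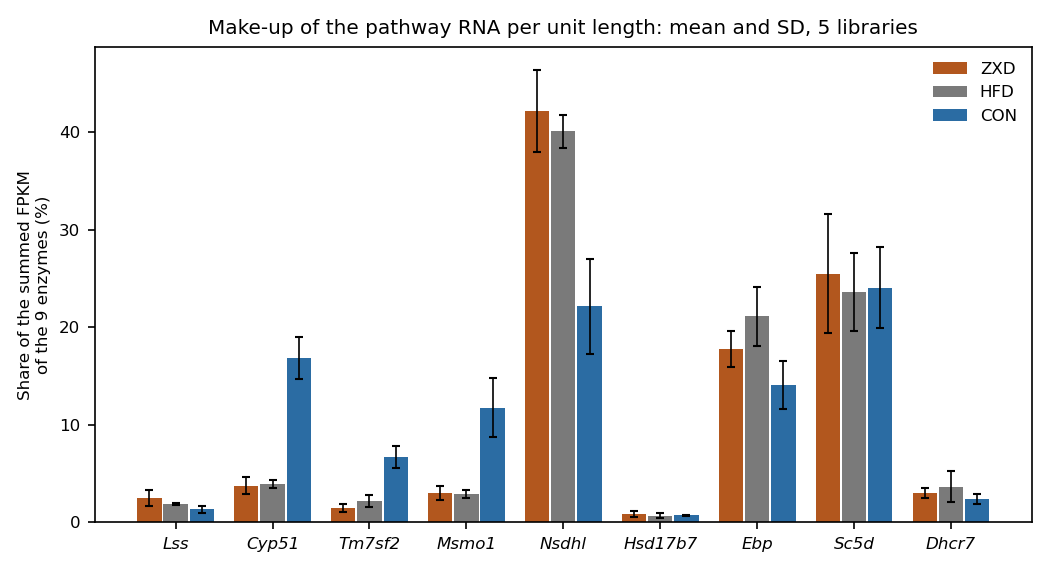
Share of the summed FPKM of the 9 enzymes held by each enzyme (vertical axis, percent), as mean and SD of 5 libraries in ZXD, HFD and CON. Nsdhl holds 42.2% and 40.1% in ZXD and HFD, against 22.1% in CON, and Cyp51 3.74% and 3.92%, against 16.8%.

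In some libraries nearly all enzymes lay on the same side of their group mean, and in others they split. In ZXD 2, 9 of 9 were above their ZXD mean on the log2 scale, and in ZXD 4, 0 of 9, with mean deviations of 0.41 and -0.49. HFD 1 had 8 of 9 above the HFD mean, and HFD 2 and HFD 5 had 1 of 9 each. In CON 1, 8 of 9 were above the CON mean, and in CON 5, 1 of 9. The single exceptions in HFD 1 and HFD 2 were both Dhcr7, which was below its mean in HFD 1 and above it in HFD 2. ZXD 1 had 8 of 9 above its group mean, and the other 7 libraries were mixed, with 3 to 6 of 9 above. The TMM factor of a library moves all 9 of its values together. Within ZXD it was lowest in ZXD 2, at 1.01, and highest in ZXD 4, at 1.28. CON 5 had the highest CON factor, 0.868, and HFD 1 the highest HFD factor, 1.13. The shared direction and the part of the scale in it were not tested.

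**Figure D5:**
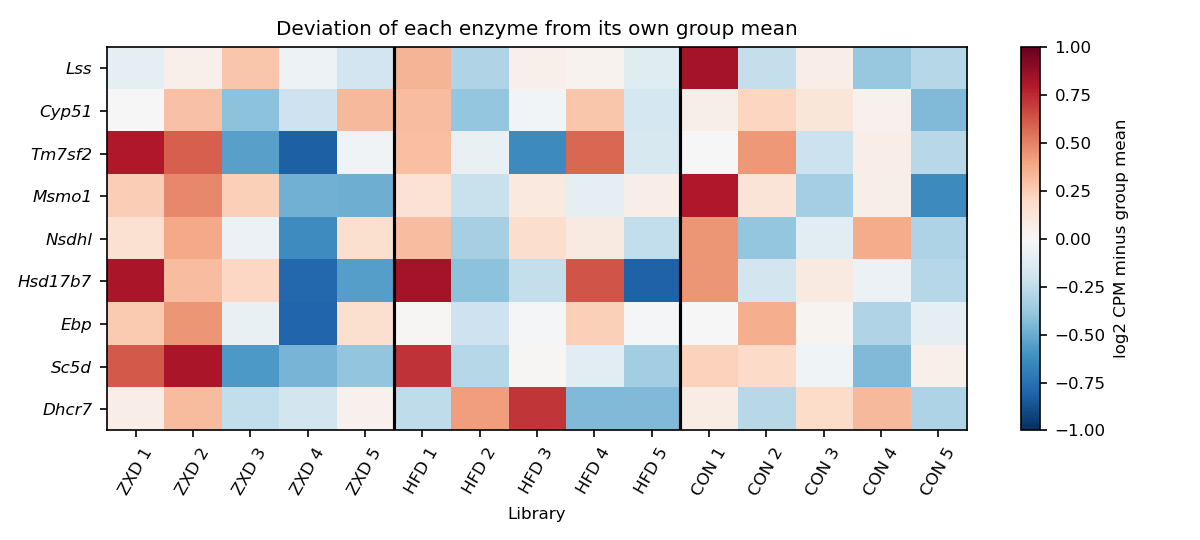
Difference in log2 CPM between each library and the mean of its own group (colour scale from -1 to 1) for the 9 enzymes, with libraries of ZXD, HFD and CON from left to right. The ZXD 2 column is above its group mean for 9 of 9 enzymes and the ZXD 4 column for 0 of 9.

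Markers of other cells differed between the groups. The summed CPM of 15 macrophage markers lay between 873 and 6252 in ZXD, between 573 and 3690 in HFD and between 336 and 894 in CON. Of these 15, 12 were called higher in ZXD against CON and 4 in HFD against CON (edgeR), beside 17.9% and 10% of all genes, and none was at 0 in all libraries. The count in HFD against CON depended on the setting. It was 1 with limma voom, 2 with a replicate block and 11 with library totals. With libraries scaled to equal hepatocyte markers (the hepatocyte scale) it was 12. In that comparison 5890 of 13163 genes were called with library totals and 7592 on the hepatocyte scale, 505 and 245 of them lower. With limma voom 2150 were called and with a replicate block 1909, of which 1356 and 1117 were lower. The sum was highest in ZXD 4 at 6252 CPM and lowest among ZXD libraries in ZXD 2 at 873 CPM; 0 of 9 enzymes were above the ZXD mean in ZXD 4 and 9 of 9 in ZXD 2. CON 1 had the highest CON sum, 894 CPM, with 8 of 9 enzymes above the CON mean, and CON 5 the lowest, 336 CPM, with 1 of 9. Close to these sums, CON 4 at 871 CPM and CON 3 at 341 CPM had 5 of 9 each. HFD 2 and HFD 5 had the highest HFD sums, 3690 and 2817 CPM, with 1 of 9 each. HFD 4 had the lowest, 573 CPM, with 6 of 9. The summed CPM of 8 hepatocyte markers lay between 52111 and 117969 in ZXD, between 73480 and 107331 in HFD and between 164900 and 200836 in CON. Here ZXD 4 was lowest of all and ZXD 2 highest on the feed. Of the 8, 4 were called lower in ZXD against CON and 3 in HFD against CON, beside 14.8% and 10.9% of all genes.

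Over all genes 17.9% were called higher in ZXD against CON and 10% in HFD against CON. Among the other lists, 6 of 6 tested T and NK cell markers were higher in ZXD against CON and 5 of 6 in HFD against CON. Gzmb was at 0 in all libraries. B cell markers were higher for 3 of 4 in ZXD against CON and 2 of 4 in HFD against CON. Cholangiocyte markers were higher for 2 of 5 and 3 of 5 in the same comparisons, and endothelial markers for 3 of 6 and 0 of 6. Of 7 stellate cell markers, 1 was higher in ZXD against CON, near the share of all genes. In HFD against CON 1 was lower, beside 10.9% of all genes. In ZXD against HFD, 0 of the 51 tested markers were called (edgeR), and 14 had an unadjusted p under 0.05, beside 2167 of all 13163 genes. The 14 were 5 of 6 endothelial, 5 of 15 macrophage, 2 of 5 cholangiocyte and 2 of 7 stellate cell markers. Of the endothelial markers 3 of 6 were higher with no overlap, and of the macrophage markers 1 of 15, beside 2.14% of all genes. The part of these cell types in the enzymes' levels was not tested.

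With a macrophage score (mean centred log2 CPM of the markers) as a covariate, 8 of 9 enzymes remained lower in HFD against CON and 5 of 9 in ZXD against CON. Over all 13163 genes, the covariate left 591 called lower in HFD against CON and 186 in ZXD against CON, beside 1436 and 1943 without it. Nsdhl was lost in HFD against CON, at a log2 fold change of -0.83 (edgeR adjusted p = 0.0514) beside -0.94 without the covariate, and Lss, Nsdhl, Hsd17b7 and Sc5d in ZXD against CON (edgeR adjusted p = 0.0775, 0.235, 0.364 and 0.137). With libraries scaled to equal hepatocyte markers, a setting chosen after seeing the data, the median of all genes moved to 0.73 in HFD against CON and 0.79 in ZXD against CON. On that scale 6 of 9 were called in HFD against CON and 7 of 9 in ZXD against CON. Over all 13163 genes 245 and 305 were called lower there. Lss, Nsdhl and Dhcr7 were lost in HFD against CON, where the log2 fold changes were -0.61, -0.18 and -0.45 (edgeR adjusted p = 0.0532, 0.374 and 0.134). Lss and Nsdhl were lost in ZXD against CON, at -0.33 and -0.21 (edgeR adjusted p = 0.267 and 0.304). The log2 fold changes of Cyp51, Tm7sf2 and Msmo1 there lay between -3.32 and -2.75.

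A list of 9 enzymes upstream of these held Acat2, Hmgcs1, Mvk, Pmvk, Mvd, Idi1, Fdps, Fdft1 and Sqle. In HFD against CON 9 of 9 were lower, beside 10.9% of all genes, with a median log2 fold change of -2.14. In ZXD against CON 9 of 9 were lower, beside 14.8% of all genes, with a median of -2.27. In ZXD against HFD 0 of 9 were called (edgeR), and 2 of 9 had an unadjusted p under 0.05, beside 2167 of all 13163 genes. Fdps, farnesyl diphosphate synthase, had the smallest adjusted p in HFD against CON, at a log2 fold change of -2.92 (standard error 0.13, edgeR adjusted p of 7.26e-09). Mvd, the decarboxylase of mevalonate diphosphate, had the largest, at -1.56 (standard error 0.25, edgeR adjusted p of 0.000878). With libraries scaled to equal hepatocyte markers 8 of 9 were called in each comparison with CON: Pmvk, phosphomevalonate kinase, was lost in HFD against CON (edgeR adjusted p = 0.086) and Mvd in ZXD against CON (edgeR adjusted p = 0.278). Sqle, squalene epoxidase, which makes the substrate of Lss, averaged 7.36 ± 0.48 CPM in ZXD, 7.75 ± 1.12 in HFD and 59.4 ± 17.8 in CON, and fell by 2.94 on the log2 scale in HFD against CON (standard error 0.19, edgeR adjusted p of 1.91e-07). The drop in RNA at Sqle was thus deeper than at Lss, the step after it, whose log2 fold change was -1.34; the difference between the pair was not tested.

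Partner proteins and alternative enzymes moved less together. Of 8, 3 were lower and 5 did not pass in HFD against CON, beside 10.9% of all genes lower, with a median of -0.40. In ZXD against CON 4 were lower and 1 higher, beside 14.8% and 17.9% of all genes, with a median of -0.78. In ZXD against HFD 0 of 8 passed (edgeR), and 1 of 8 had an unadjusted p under 0.05, beside 2167 of all 13163 genes. On the hepatocyte scale the counts turned to 1 lower (Cyb5b) and 3 higher (Ebpl, Erg28 and Lbr) in HFD against CON. In ZXD against CON they turned to 3 lower and 2 higher (Ebpl and Lbr). On that scale 7592 of 13163 genes were called in HFD against CON, 245 of them lower. In ZXD against CON 8523 were called, 305 of them lower. Lbr, a nuclear envelope protein with the same reductase activity as Tm7sf2, was the gene called higher. It averaged 12.2 ± 4.17 CPM in ZXD, 6.54 ± 1.62 in HFD and 5.83 ± 1.59 in CON. It was 1.06 higher on the log2 scale in ZXD than in CON (standard error 0.26, edgeR adjusted p of 0.00729), with ranges that overlap. This call was lost with the macrophage covariate (edgeR adjusted p = 0.524), under which calls over all genes in that comparison went from 4299 to 286. In HFD against CON the log2 fold change of Lbr was 0.17 (edgeR adjusted p = 0.666), and in ZXD against HFD it was 0.90 (edgeR adjusted p = 0.155, DESeq2 adjusted p = 0.0421).

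Among the electron carriers, Por, the cytochrome P450 reductase that serves Cyp51, fell by 1.13 on the log2 scale in HFD against CON (edgeR adjusted p = 0.0146) and by 1.33 in ZXD against CON (edgeR adjusted p = 0.00451), with ranges that overlap. In the same order of comparisons, Cyb5b, a cytochrome b5, fell by 1.52 and 1.22 (edgeR adjusted p = 0.00082 and 0.00271), and Cyb5r3, its reductase, by 0.92 and 1.31 (edgeR adjusted p = 0.0138 and 0.00157). Cyb5a, the other cytochrome b5, had log2 fold changes of -0.21 in HFD against CON and -0.60 in ZXD against CON and did not pass. Pgrmc1, a heme-binding partner of Cyp51, had a log2 fold change of -0.59 in HFD against CON (edgeR adjusted p = 0.112) and fell by 0.96 in ZXD against CON (edgeR adjusted p = 0.0127). With the macrophage covariate the ZXD against CON calls of Por, Cyb5b, Cyb5r3 and Pgrmc1 were lost, as were the HFD against CON calls of Por and Cyb5r3 (edgeR adjusted p 0.143 to 0.73). Most calls over all genes were lost with it too: 286 were left of 4299 in ZXD against CON and 1010 beside 2758 in HFD against CON. With library totals as the scale, the HFD against CON call of Cyb5r3 was also lost.

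Ebpl, a relative of Ebp, had log2 fold changes of -0.13 in both comparisons with CON and did not pass. On the hepatocyte scale, where most called genes were higher, both were called higher. The values there were 0.58 in HFD against CON and 0.62 in ZXD against CON (edgeR adjusted p = 0.0248 and 0.0153). Erg28, known in yeast as a scaffold of the demethylation enzymes and listed in the table under its older symbol RGD1310769, had -0.08 in HFD against CON and -0.42 in ZXD against CON and did not pass, and on the hepatocyte scale it was called higher in HFD against CON, at 0.63 (edgeR adjusted p = 0.0474).

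Of 7 genes of sterol sensing, 3 were lower in HFD against CON, beside 10.9% of all genes, with a median of 0.00. In ZXD against CON 3 were lower and 1 higher, beside 14.8% and 17.9% of all genes, with a median of 0.07. In ZXD against HFD 0 of 7 passed (edgeR), and 1 of 7 had an unadjusted p under 0.05, beside 2167 of all 13163 genes. The direction of this list depended on the scale. With library totals 2 were lower and 3 higher in each comparison with CON. On the hepatocyte scale 1 was lower and 4 higher in HFD against CON and 1 lower and 3 higher in ZXD against CON. Most calls over all 13163 genes were also higher on these scales. In HFD against CON 505 of 5890 calls were lower with library totals and 245 of 7592 on the hepatocyte scale. In ZXD against CON 628 of 6669 and 305 of 8523 were lower. Srebf2, which encodes SREBP-2, averaged 46.7 ± 6.20 CPM in ZXD, 45.5 ± 3.89 in HFD and 86.1 ± 11.7 in CON, and fell by 0.92 on the log2 scale in HFD against CON (standard error 0.12, edgeR adjusted p of 0.000163). With libraries scaled to equal hepatocyte markers, the log2 fold change of Srebf2 in that comparison was -0.20 and the call was lost (edgeR adjusted p = 0.425). Mbtps1, a protease that cuts SREBP-2, had the largest adjusted p of the list, at a log2 fold change of 0.00 (edgeR adjusted p = 0.985). Mbtps1 was called higher in both comparisons with CON with library totals and on the hepatocyte scale, where it was at 0.72 in HFD against CON (edgeR adjusted p = 0.00291). The other called genes are named after their values were seen. Insig1, the sterol-dependent anchor of Scap, fell by 2.22 in HFD against CON (standard error 0.41, edgeR adjusted p of 0.00229). Scap, the escort of SREBP-2, fell by 0.54 in HFD against CON (edgeR adjusted p = 0.0262). Leaving out any 1 of CON 1, CON 4, HFD 2, HFD 3 or HFD 5 ended the Scap call, as did the macrophage covariate and library totals as the scale (edgeR adjusted p up to 0.492), and on the hepatocyte scale the log2 fold change was 0.19. Rnf145, a ubiquitin ligase of the endoplasmic reticulum, was 1.45 higher in ZXD than in CON (standard error 0.27, edgeR adjusted p of 0.00204). That call was lost with the macrophage covariate (edgeR adjusted p = 0.279), under which calls over all genes in that comparison went from 4299 to 286.

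Tested genes outside the 9 were ranked by the root mean square difference between their centred log2 CPM and the mean centred profile of the 9 over the 15 libraries. The 5 closest were Acss2 at 0.241, Fabp1 at 0.261, Hao1 at 0.304, Ttc39c at 0.315 and Slc46a1 at 0.320, against a median of 1.14 over tested genes outside the 9. The 9 themselves lay between 0.331 for Sc5d and 0.858 for Cyp51, so the 5 are closer to the mean profile than the enzymes are. Acss2, which makes acetyl-CoA from acetate in the cytosol, averaged 17.5 ± 4.52 CPM in ZXD, 18.5 ± 4.37 in HFD and 102 ± 15.8 in CON. Fabp1, the liver fatty acid binding protein, averaged 296 ± 75.3 CPM in ZXD, 254 ± 40.0 in HFD and 1006 ± 157 in CON. Hao1 is a peroxisomal oxidase of glycolate and Slc46a1 a folate transporter, and both had CON libraries above all others. The ranking was over samples that fall into CON and the feed groups, so it mostly reflects that difference.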

How the data were processed

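The authors deposited 1 table with whole-number read counts and FPKM values per gene and library, per the file headers. Of tools, edgeR alone is named, without a version, per the submitters' processing notes. The aligner, counter, strand setting and build are not given in the sources at hand. The deposited FPKM values equal count divided by gene length and by library total (100% of values above 0 within 0.01%), and served here only for levels between genes. Symbols and promoters came from RefSeq tables of GRCr8.

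Counts were filtered with filterByExpr (minimum count 10, minimum total 15) and scaled by TMM. All 15 libraries entered 1 robust quasi-likelihood fit (edgeR 4.0.16, R 4.3.3) with group as the term and 12 residual degrees of freedom. Adjusted p-values are Benjamini-Hochberg values over 13163 genes, called under 0.05. Standard errors are the log2 fold change over the root of F. Log2 CPM carries a prior count of 2. Alternatives were other scalings and filters, DESeq2 1.42.0, limma 3.58.1 voom, a replicate block, a macrophage covariate, only the compared groups, and leaving out each library. The fit was checked on counts with known changes.

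The members, lists and tests were chosen with earlier results of these data known. All 9 enzymes are named, all partner genes counted, and from the upstream and sensing lists the genes with the smallest and largest adjusted p in HFD against CON, plus Sqle and Srebf2. Some genes of these lists are not reported here, and the lists' counts leave them out. A count of 3 corresponded to 0.183 to 0.285 CPM, counting error only. A simvastatin group was not analysed here.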

Additional observations from a re-analysis of the deposited data

Results flagged for a closer look

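Cyp51 in CON 5 had 325 CPM, far below the other 4 CON libraries, which had 454 to 514 CPM. The flag was computed on log2 CPM and not on these CPM values. On the log2 scale its gap to the next library was 0.729 of the group's whole range. Dixon's critical value for 5 samples is 0.710. It was 1 of 27 enzyme and group combinations examined, and chance flags about 1 in 20. CON 5 also had 8 of 9 enzymes below their CON mean. Without CON replicate 5 the Cyp51 calls against CON stood, and with it included every CON library was still far above those on the feed.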

How the results depend on the processing

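In HFD against CON and in ZXD against CON all 9 enzymes stayed lower under every alternative, and leaving out any 1 library changed no call of an enzyme. The calls lost were those with the macrophage covariate, which left 5 of 9 in ZXD against CON and 8 of 9 in HFD against CON, and with the hepatocyte scale, which left 7 and 6 of 9; the report gives which. The cause was not tested. In ZXD against HFD 0 of 9 were called in any setting, but signs near 0 turned. Nsdhl was -0.0068 with DESeq2 size factors, -0.0115 with library totals, -0.0433 with upper quartile factors, -0.0153 with the strict filter (1 CPM in all libraries), -0.0069 by DESeq2, -0.0046 by limma voom, -0.0225 with only the compared groups and -0.0280 on the hepatocyte scale. Leaving out 1 library gave Nsdhl -0.13 to 0.13, Msmo1 -0.17 to 0.11 and Sc5d -0.20 to 0.31.

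The labels do not say that the replicate numbers pair libraries. Correlations of same-numbered deviations ran from -0.078 to 0.260 between HFD and CON and from -0.547 to 0.105 between ZXD and HFD. Between ZXD and CON they ran from -0.158 to 0.0149. Among CON libraries, HFD 1, HFD 2 and HFD 3 correlated best with their own number, and no library did in the other comparisons. A pairing or shared batch was not tested. With the number as a block, 9, 0 and 9 enzymes were called in HFD against CON, ZXD against HFD and ZXD against CON, while calls over all genes went to 1909 and 3466 against CON, beside 2758 and 4299 without it. Over all genes, the calls in ZXD against CON and in HFD against CON were 286 and 1010 with the macrophage covariate, 6669 and 5890 with library totals, and 8523 and 7592 on the hepatocyte scale. Of the calls in ZXD against CON and in HFD against CON, 38.3% and 35.3% were lower with upper quartile factors and 3.58% and 3.23% on the hepatocyte scale, which was chosen after seeing the data. Leaving out 1 library gave 3037 to 4680 and 1697 to 3235 calls. DESeq2 called 342 genes in ZXD against HFD, beside 0 by edgeR, where leaving out HFD 1 gave 7 and HFD 3 gave 1. Of 24 step ratios 5 were called, and 4 to 6 without 1 library. Hsd17b7, with 22 to 160 reads per library, is the enzyme most limited by depth.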
